A study of Mus musculus with 12 samples.

Results

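The comparison set the striatum of R6/2 mice given an adeno-associated virus (AAV) with a short hairpin RNA against TRAX (shTRAX) against that of R6/2 mice given a control AAV. It used 6 of the 12 small RNA libraries of the study, 3 in each group. The other 6 came from wild-type (WT) mice with the same AAVs and are drawn on only where the shTRAX effect is set beside that in WT. R6/2 mice, labelled B6CBA-Tg(HDexon1)62Gpb/3J, carry a transgene with the first exon of the human huntingtin gene and develop an early and severe form of Huntington-like disease. All mice were on the B6CBAFI/J background, received AAV into both striata at 5 weeks and were sampled at 10.5 weeks of age, so that control and shTRAX groups share the transgene, the surgery and the viral vector. The labels name neither the promoter of the hairpin nor the sequence it targets, and they do not say whether each library came from a single animal. Adjusted p-values therefore measure only the spread between these libraries, which may be technical. The members were the 1915 mature miRNA names of the count table, 1 precursor row each, of which 651 had enough counts to be tested.

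MicroRNAs are cut from hairpins in 2 steps, by Drosha in the nucleus and by Dicer in the cytoplasm, which leaves a duplex of a 5p and a 3p arm. In most hairpins 1 arm is loaded into Argonaute and kept, and the other is degraded. Bases 2 to 8 of the loaded arm, the seed, pair with target mRNAs, so that miRNAs with the same seed share many targets. TRAX (translin-associated factor X, encoded by Tsnax) is the partner of translin in C3PO, an RNase that removes the passenger strand of small interfering RNA duplexes and has been reported to degrade precursors of miRNAs. Small RNA libraries do not hold Tsnax mRNA, and the degree of knockdown could not be read from them.

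The mature sequences on which the results turn are shown 5′ to 3′, with the seed in capitals, from RefSeq (GRCm38.p6). The first set holds miRNAs of the imprinted Dlk1-Dio3 region of chromosome 12, which hold 3 of the 4 miRNAs that passed the test without 1 library and others next to them by p. No sequence is shown for miR-376c-3p.
miR-496a-3p: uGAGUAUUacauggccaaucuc
miR-412-5p: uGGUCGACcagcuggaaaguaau
miR-409-3p: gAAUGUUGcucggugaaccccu
miR-679-5p: gGACUGUGaggugacucuuggu
miR-667-5p: cGGUGCUGguggagcagugagcacg
miR-667-3p: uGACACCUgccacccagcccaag

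The second set holds the miRNAs of 1 hairpin cluster in Spaca6 on chromosome 17, with let-7a-5p and miR-125b-5p, which come from other chromosomes and carry the same seeds as let-7e-5p and miR-125a-5p.
miR-99b-5p: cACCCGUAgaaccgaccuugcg
let-7e-5p: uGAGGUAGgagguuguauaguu
let-7a-5p: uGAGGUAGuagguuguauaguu
miR-125a-5p: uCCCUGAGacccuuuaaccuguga
miR-125b-5p: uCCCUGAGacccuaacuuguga

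The third set holds both arms of the hairpins whose arms are compared below, with miR-139-5p and the rare miR-6904-5p.
miR-330-5p: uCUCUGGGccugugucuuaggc
miR-330-3p: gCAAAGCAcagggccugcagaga
miR-93-5p: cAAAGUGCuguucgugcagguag
miR-93-3p: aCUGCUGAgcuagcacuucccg
miR-7b-5p: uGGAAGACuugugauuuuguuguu
miR-7b-3p: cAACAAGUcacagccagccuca
miR-24-2-5p: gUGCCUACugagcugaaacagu
miR-24-3p: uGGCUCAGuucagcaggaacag
miR-139-5p: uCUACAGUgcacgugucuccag
miR-6904-5p: uCCUGGGGuuagaguugagugg

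The last set shows 2 miRNAs that were far higher and 2 that were far lower in shTRAX replicate 3 than in every other library. They differ in base composition, with a GC content of 68.2% in miR-370-3p, 54.5% in miR-485-3p, 30.4% in miR-135a-5p and 39.1% in miR-19b-3p.
miR-370-3p: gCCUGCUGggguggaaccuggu
miR-485-3p: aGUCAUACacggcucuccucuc
miR-135a-5p: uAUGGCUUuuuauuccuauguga
miR-19b-3p: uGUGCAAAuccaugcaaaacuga

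The 6 libraries held 13849777 to 14444045 counts on mature miRNAs, and 1033 to 1096 miRNAs had at least 1 count in each. Levels are given as CPM (counts scaled to a common library size) after TMM scaling, and differences are log2 fold changes of shTRAX over control with their standard error. shTRAX replicate 3 stood apart from the other 5 libraries. Its 10 most abundant miRNAs took 60.8% of the counts, where the other 5 libraries had 54.1% to 55.1%. Its median correlation of log2 CPM with the other libraries of its group was 0.970 against 0.983 to 0.994 for the rest. In a limma fit that estimates how far each library follows its group, its weight was 0.0586 against 1.24 to 2.75. It was the highest of the 6 libraries for 247 and the lowest for 280 of the 651 miRNAs, and 173 lay at least 2-fold from the mean of the other shTRAX libraries. The counts of calls and most named values are therefore given with all 6 libraries and without this one.

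With all 6 libraries no miRNA passed an adjusted p of 0.05 (0.0% of 651; edgeR quasi-likelihood test with Benjamini-Hochberg adjustment), and the smallest adjusted p was 0.421. At an unadjusted p under 0.05 there were 38 higher (5.84%) and 30 lower (4.61%). DESeq2 gave 13 at an adjusted p under 0.05. On the deposited RPM values, scaled by library totals alone, the unadjusted split was 26 higher and 32 lower. It also moved when 1 library was left out, from 16 higher and 21 lower without control replicate 1 to 67 higher and 15 lower without shTRAX replicate 2. All 3 shTRAX libraries lay above all 3 controls for 107 miRNAs (16.4%) and below them for 94 (14.4%). Without shTRAX replicate 3, 4 of 664 miRNAs passed (0.602%), with 58 higher (8.73%) and 56 lower (8.43%) at an unadjusted p under 0.05 and with 128 higher (19.3%) and 120 lower (18.1%) whose groups did not overlap. The median standard error of the log2 fold change fell from 0.27 to 0.13 when that library was left out, and 59 miRNAs had an unadjusted p under 0.05 both ways.

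The 4 that passed without shTRAX replicate 3 were miR-125a-5p, miR-412-5p and miR-496a-3p, which rose, and miR-376c-3p, which fell. All but miR-125a-5p come from 1 stretch of the Dlk1-Dio3 region, whose miRNAs are expressed from the maternal chromosome, abundant in neurons and processed from long noncoding transcripts such as Mirg. miR-496a-3p stood at 105, 87.2 and 83.7 CPM in the controls and 235, 237 and 125 CPM under shTRAX. The first pair of shTRAX libraries lay more than 2-fold above all controls, whereas replicate 3 lay only just above them. Its log2 fold change was 1.35 ± 0.11 without that library (adjusted p = 0.0167) and 1.11 ± 0.28 with it, and its adjusted p ran from 0.00191 to 0.698 over all alternatives.

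**Figure D1:**
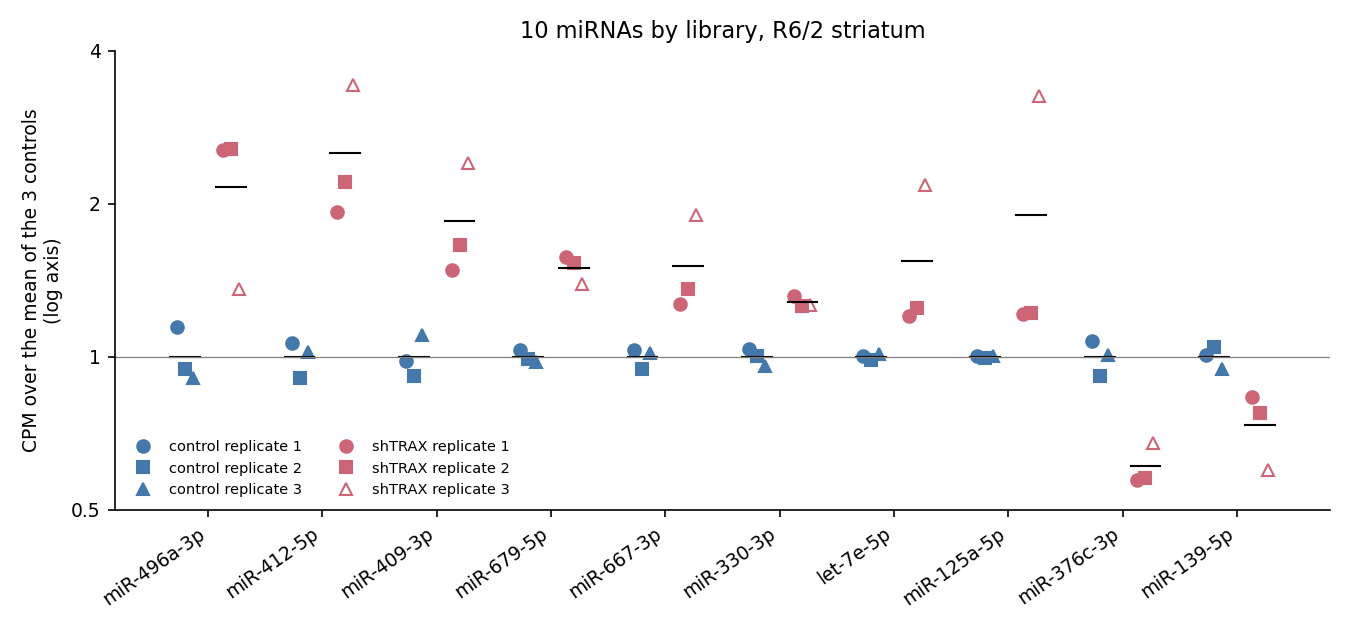
Level of 10 miRNAs in each R6/2 library, as CPM over the mean of the 3 controls on a log axis. Symbols are replicates, the open triangle is shTRAX replicate 3, and black bars are group means. For miR-125a-5p shTRAX replicates 1 and 2 coincide just above the controls and replicate 3 lies far above, for miR-496a-3p replicate 3 is the lowest of the shTRAX libraries, and for miR-330-3p all 3 lie together.

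miR-412-5p is cut from a hairpin that overlaps an exon of Mirg (GRCm38 chromosome 12, 109743289 to 109743368, plus strand), while the hairpin of miR-496a lies in an intron of the same gene (109739119 to 109739197). miR-412-5p stood at 32.8, 28 and 31.5 CPM in the controls and 59.2, 68 and 105 CPM under shTRAX. All 3 shTRAX libraries lay above all 3 controls, with replicate 3 the highest. The log2 fold change was 1.04 ± 0.10 without replicate 3 (adjusted p = 0.0234) and 1.33 ± 0.25 with it, with an adjusted p from 0.00352 to 0.698 over the alternatives. Per the authors' deposited table, its fold was 2.46.

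miR-376c-3p belongs to the miR-376 family of the same region, whose hairpins lie side by side (chromosome 12, 109722718 to 109722803). It stood at 235, 201 and 219.8 CPM in the controls and 125, 126 and 148 CPM under shTRAX. All 3 shTRAX libraries were below all 3 controls, including replicate 3. The log2 fold change was -0.80 ± 0.09 without replicate 3 (adjusted p = 0.0236) and -0.72 ± 0.14 with it, with an adjusted p from 0.00361 to 0.681 over the alternatives.

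miR-125a-5p, related to the worm miRNA lin-4 and abundant in brain, stood at 14032, 13895 and 14049 CPM in the controls and 17004, 17084 and 45698 CPM under shTRAX. The controls lay close together, the first pair of shTRAX libraries lay above them by a small margin, and replicate 3 lay far above that pair. The log2 fold change was 0.28 ± 0.03 without replicate 3 (adjusted p = 0.0236) and 0.93 ± 0.40 with it, where the adjusted p was 0.428. Over the alternatives the adjusted p ran from 0.0236 to 0.698.

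Among the miRNAs next by unadjusted p, given as values only, further members of the Dlk1-Dio3 region were higher. miR-409-3p, whose hairpin lies in a Mirg intron next to that of miR-412, stood at 206, 192 and 232 CPM in the controls and 312, 349 and 505 CPM under shTRAX (0.65 ± 0.11 without replicate 3 and 0.89 ± 0.21 with it). miR-679-5p stood at 9.21, 8.84 and 8.7 CPM in the controls and 14, 13.6 and 12.4 CPM under shTRAX (0.63 ± 0.10 and 0.58 ± 0.16). miR-667-3p stood at 25.5, 23.4 and 25.1 CPM in the controls and 31.3, 33.5 and 46.9 CPM under shTRAX (0.39 ± 0.08 and 0.59 ± 0.20). With offsets for GC content over 6 libraries miR-667-3p stood at 0.07 and miR-679-5p at 0.36. In all 3 of them the shTRAX libraries lay above every control, as for 16.4% of all miRNAs tested. They were named for their small p in these same libraries.

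Outside that region, the higher values with the smallest p without replicate 3 were those of let-7e-5p, miR-330-3p, miR-148b-3p and miR-93-3p, the last of which is described with its hairpin. With all 6 libraries they were those of the rare miR-6904-5p and miR-7047-3p, described below, and miR-93-3p. let-7e-5p, of the let-7 family that rises as cells differentiate, stood at 5551, 5453 and 5597 CPM in the controls and 6655, 6905 and 12028 CPM under shTRAX (0.62 ± 0.24 with and 0.29 ± 0.04 without replicate 3). miR-330-3p stood at 58.9, 57 and 54.6 CPM in the controls and 75, 71.5 and 71.8 CPM under shTRAX (0.36 ± 0.12 with and 0.36 ± 0.07 without replicate 3), although with an offset for GC content its log2 fold change was -0.0052 over 6 libraries. miR-148b-3p, of the miR-148 and miR-152 family, stood at 1324, 1358 and 1347 CPM in the controls and 1595, 1699.6 and 1713 CPM under shTRAX (0.31 ± 0.10 with and 0.29 ± 0.06 without replicate 3). For miR-148b-3p and miR-330-3p the 3 shTRAX libraries differed among themselves by less than their gap to the controls.

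On the lower side miR-139-5p, from an intron of Pde2a, a phosphodiesterase gene of striatal neurons, stood at 2024, 2096 and 1893 CPM in the controls and 1675, 1552 and 1199 CPM under shTRAX (-0.32 ± 0.07 without replicate 3 and -0.44 ± 0.16 with it). miR-130b-3p stood at 32.1, 36.2 and 36.3 CPM in the controls and 26.9, 24.5 and 21.9 CPM under shTRAX (-0.51 ± 0.15 with and -0.44 ± 0.09 without replicate 3). miR-203-3p, best known from skin epithelium, stood at 266, 348 and 442 CPM in the controls and 198, 234 and 193 CPM under shTRAX (-0.76 ± 0.21 with and -0.71 ± 0.22 without replicate 3). The groups did not overlap for any of these, as for 14.4% of all miRNAs tested on the lower side. The controls of miR-203-3p, however, spread over more than the gap between the groups. miR-33-5p, from an intron of the cholesterol regulator gene Srebf2, stood at 26.2, 30.6 and 26 CPM in the controls and 20.4, 16.3 and 4.98 CPM under shTRAX (-0.99 ± 0.48 with and -0.59 ± 0.13 without replicate 3), with replicate 3 far below the rest. miR-187-3p stood at 1813, 1835 and 1677 CPM in the controls and 1476, 1498 and 1169 CPM under shTRAX (-0.36 ± 0.14 with and -0.26 ± 0.06 without replicate 3).

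Of the remaining lower values, miR-669k-5p (-0.76 ± 0.20 with and -0.64 ± 0.13 without replicate 3), miR-467e-5p (-0.57 ± 0.27 with and -0.33 ± 0.07 without replicate 3), miR-467a-5p and miR-467b-5p (both -0.51 ± 0.19 with and -0.36 ± 0.08 without replicate 3) and miR-297b-5p (-1.35 ± 0.40 with and -1.02 ± 0.23 without replicate 3) all come from the miRNA array in an intron of Sfmbt2. miR-467a-5p and miR-467b-5p have identical counts in every R6/2 library, so that they are not separate observations, although the counts of calls include both.

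The differences of abundant miRNAs were small in size. The 85 miRNAs at a mean of 1000 CPM or more took 94.7% of the scaled counts, and their log2 fold changes had a median of -0.05 with all 6 libraries and 0.00 without replicate 3. The median size of the difference, whatever its sign, was 0.24 with all 6 libraries and 0.10 without replicate 3 in that class, against 0.42 and 0.23 among the 250 rare miRNAs under 10 CPM. The 118 miRNAs from 100 to 1000 CPM had a median size of 0.27 and 0.10, and the 198 from 10 to 100 CPM one of 0.34 and 0.15. At an unadjusted p under 0.05 there were 6 of 85 (7.06%), 14 of 118 (11.9%), 19 of 198 (9.6%) and 29 of 250 (11.6%) in these classes, from abundant to rare, with all libraries. Over all miRNAs tested 5.84% were higher and 4.61% lower at such a p. Without replicate 3 there were 19 (22.4%), 21 (17.8%), 44 (22.2%) and 28 (11.2%), against 8.73% higher and 8.43% lower over all miRNAs. That share was lowest in the rare class.

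**Figure D2:**
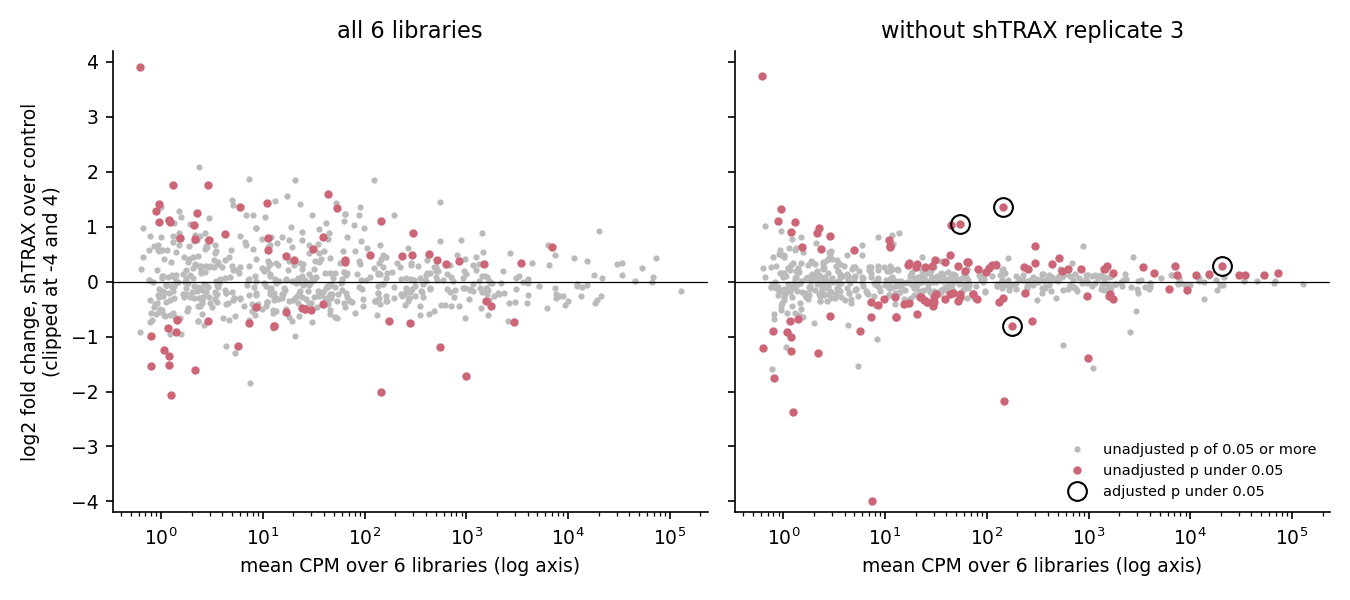
Log2 fold change of shTRAX over control against mean CPM (log axis) for the 651 miRNAs tested with all 6 libraries. The left panel uses all libraries and the right panel leaves out shTRAX replicate 3; coloured points have an unadjusted p under 0.05 and circles an adjusted p under 0.05. The cloud is narrower on the right, and the 4 circled miRNAs appear only there.

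Of the 15 most abundant miRNAs, miR-9-5p, a regulator of neural progenitors, came first at 141987, 133579 and 129854 CPM in the controls and 132738, 131673 and 95348 CPM under shTRAX. The controls and the first pair of shTRAX libraries overlapped, and replicate 3 was far lower (-0.04 ± 0.04 without it and -0.17 ± 0.15 with it). The neuronal miR-128-3p stood at 0.01 ± 0.04 without replicate 3 and 0.09 ± 0.10 with it. Without it miR-29a-3p stood at -0.02 ± 0.03, miR-26a-5p at 0.00 ± 0.05, miR-16-5p at 0.00 ± 0.03 and the endothelial miR-126a-3p at 0.08 ± 0.05. These 5 had log2 fold changes within 0.1 of 0 and overlapping groups in the libraries other than replicate 3.

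Among the 15 most abundant miRNAs, several with the let-7 and miR-125 seeds had small differences and groups that did not overlap. miR-125b-5p stood at 60711, 64748 and 61896 CPM in the controls and 68172, 71466 and 113175 CPM under shTRAX (0.16 ± 0.04 without replicate 3, unadjusted p = 0.0063). let-7f-5p stood at 49152, 48268 and 47496 CPM in the controls and 52711, 52439 and 67317 CPM under shTRAX (0.25 ± 0.12 with and 0.12 ± 0.02 without replicate 3), while let-7c-5p and let-7a-5p had log2 fold changes of 0.12 ± 0.04 and 0.13 ± 0.03 without replicate 3 and 0.34 ± 0.18 and 0.32 ± 0.16 with it. For all 4 every shTRAX library lay above every control, and replicate 3 was the highest. Of the 85 miRNAs at 1000 CPM or more, 19 lay above every control in this way and 13 below. Over all miRNAs tested the shares were 16.4% and 14.4%. let-7i-5p, the fourth let-7 member among the 15, stood at 0.03 ± 0.04 without it and 0.11 ± 0.11 with it, and its groups overlapped. By contrast miR-29b-3p, miR-29c-3p and miR-218-5p had log2 fold changes of -0.33 ± 0.27, -0.26 ± 0.20 and -0.38 ± 0.24 with replicate 3 and -0.07 ± 0.06, -0.07 ± 0.05 and -0.15 ± 0.06 without it.

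Rare miRNAs rest on few counts. miR-6904-5p, from a hairpin that overlaps an exon of Parp1 (chromosome 1, 180587201 to 180587267), had 0, 0 and 3 counts in the controls and 11, 19 and 19 under shTRAX. The counts sum to 49 against 3, a 16.1-fold difference after scaling to the total counts of the groups, for which the exact 95% Poisson limits, of counting error alone, were 5.20 and 80.9, and all 3 control counts came from replicate 3. Under the alternatives its fitted log2 value lay anywhere between 0.68 and 7.05. miR-7047-3p had 9, 11 and 12 counts in the controls and 21, 19 and 28 under shTRAX (1.11 ± 0.30 with and 0.89 ± 0.26 without replicate 3), miR-3070-2-3p had 14, 20 and 23 counts in the controls and 45, 30 and 57 under shTRAX (1.24 ± 0.36 with and 0.97 ± 0.31 without replicate 3) and miR-3058-5p had 4, 12 and 6 counts in the controls and 18, 19 and 21 under shTRAX (1.41 ± 0.42 with and 1.31 ± 0.45 without replicate 3). miR-3103-3p was the fifth, at 1.29 ± 0.39. In each of these 5 all shTRAX libraries had a higher CPM than any control, as in 30 of the 250 rare miRNAs tested.

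Among rare miRNAs with lower values, miR-3964 had 17, 26 and 43 counts in the controls and 3, 8 and 9 under shTRAX (-2.06 ± 0.52 with and -2.36 ± 0.61 without replicate 3). miR-24-2-5p, the passenger arm of miR-24, had 11, 26 and 14 counts in the controls and 6, 4 and 7 under shTRAX (-1.54 ± 0.47 with and -1.75 ± 0.56 without replicate 3). miR-466c-5p had 23, 29 and 24 counts in the controls and 6, 15 and 5 under shTRAX (-1.52 ± 0.42 with and -1.27 ± 0.39 without replicate 3). Their CPM under shTRAX lay below every control, as in 27 of the 250. Among the 1264 names that were not tested, 587 had no count at all. miR-7002-5p and miR-7036b-5p had counts in all 3 shTRAX libraries and in no control (15 and 5 counts in all), and miR-3967 and miR-669h-3p the reverse (5 and 4 counts in all). These 4 were chosen after their values were seen, and no fold is given at such counts.

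Hairpins that gave counts for both arms allow the arms to be compared within a library. The ratio of 3p to 5p counts was tested in 226 hairpins, and none passed with all 6 libraries (0.0%) or without replicate 3 (0.0%). At an unadjusted p under 0.05 there were 7 with all libraries (3.1%), all toward the 3p arm, and 20 without replicate 3 (8.85%), 15 toward the 3p and 5 toward the 5p arm. Both arms lay on the same side of 0 in 144 of the 224 hairpins with both arms in the miRNA test (67 above, 77 below) and on opposite sides in 80. The minor arm, the less abundant of the pair, had a log2 change above that of the major arm in 94 of 226 hairpins with all libraries and in 93 without replicate 3, with a median change of -0.11 and -0.05 on the log2 scale.

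mir-93 of the miR-106b-25 cluster, in Mcm7, was 1 of the 7. Its 3p arm had 117, 105 and 130 counts in the controls and 180, 188 and 226 under shTRAX, whereas its major 5p arm had 21324, 21800 and 23745 counts in the controls and 24037, 23335 and 22062 under shTRAX. The 3p counts of the groups did not overlap, while the 5p counts did. The log2 change of the arm ratio was 0.70 ± 0.19 with all libraries and 0.56 ± 0.12 without replicate 3.

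mir-7b, whose 5p arm is a neuronal and neuroendocrine miRNA, had 19, 23 and 26 counts in the controls and 43, 41 and 31 under shTRAX for its rare 3p arm and 37596 to 50774 counts for the 5p arm. All 3p counts under shTRAX lay above those of the controls, and the 5p counts overlapped (0.92 ± 0.26 with all libraries, 1.08 ± 0.20 without replicate 3). In mir-24-2 it was the rare 5p arm, described above, that was lower, against 41671 to 44613 counts for miR-24-3p (1.56 ± 0.41 with and 1.76 ± 0.43 without replicate 3). A second hairpin, mir-24-1, also yields miR-24-3p, so that its counts cannot be assigned to mir-24-2 alone. mir-421 had 18, 28 and 19 counts in the controls and 11, 12 and 4 under shTRAX for the 5p arm (1.38 ± 0.43 with and 1.03 ± 0.30 without replicate 3). mir-466c-1 (1.32 ± 0.39 with and 1.13 ± 0.36 without replicate 3) and mir-297b (1.03 ± 0.36 with and 0.77 ± 0.32 without replicate 3), both of the Sfmbt2 array, also leaned to the 3p arm. The 3p counts of mir-466c-1 are the same as those of mir-466b-1 and mir-466p, and those of mir-297b the same as those of mir-297c. Both ratios thus set the rare 5p arm of a hairpin against 3p counts that cannot be assigned to that hairpin alone. When both arms had to reach a mean of 10 CPM, 1 hairpin in place of 7 had an unadjusted p under 0.05.

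**Figure D3:**
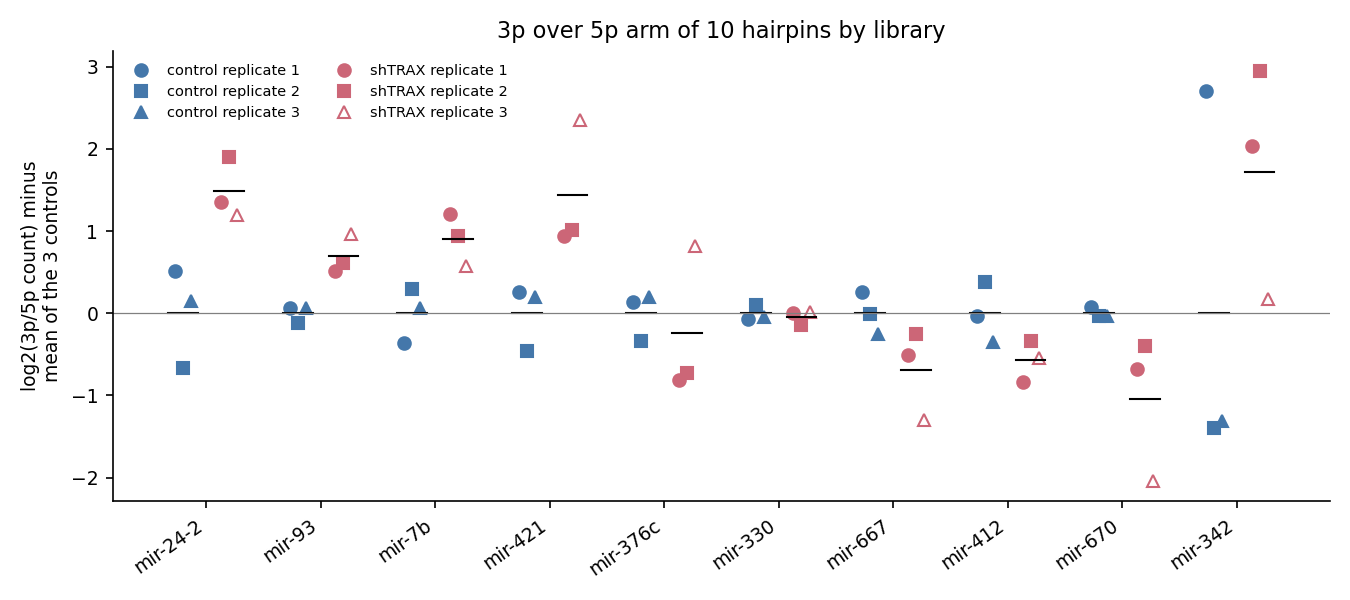
Log2 ratio of 3p to 5p counts of 10 hairpins in each R6/2 library, minus the mean of the 3 controls. Symbols are replicates, the open triangle is shTRAX replicate 3 and black bars are group means. The shTRAX libraries of mir-93, mir-7b and mir-24-2 lie above the controls, those of mir-330 coincide with them, and shTRAX replicate 3 parts from replicates 1 and 2 in mir-376c and mir-670.

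Toward the 5p arm, mir-670 (-0.99 ± 0.45 with and -0.54 ± 0.24 without replicate 3), mir-3083 (-0.87 ± 0.41 with and -0.62 ± 0.44 without replicate 3), mir-666 (-1.13 ± 0.54 with and -0.56 ± 0.27 without replicate 3), mir-667 (-0.69 ± 0.34 with and -0.38 ± 0.20 without replicate 3), mir-412 (-0.56 ± 0.28 with and -0.56 ± 0.27 without replicate 3) and mir-541 (-0.72 ± 0.36 with and -0.31 ± 0.11 without replicate 3) had the smallest p with all libraries, none under 0.05. In mir-376c the ratio was lower without replicate 3 (-0.77 ± 0.18, unadjusted p = 0.00207). Its 5p arm had 857, 977 and 751 counts in the controls and 849, 834 and 311 under shTRAX, so that only in replicate 3 did the 5p arm leave the range of the controls. With replicate 3 the log2 change was -0.26 ± 0.47. mir-342 went the other way, toward the 3p arm (1.89 ± 1.14 with and 3.46 ± 1.06 without replicate 3), but its ratio spread widely among the controls. Its 5p arm had 3, 233 and 262 counts in the controls and 5, 3 and 124 under shTRAX. Both arms of mir-330, in contrast, were higher together. miR-330-5p stood at 483, 416 and 439.9 CPM in the controls and 586, 617 and 558 CPM under shTRAX, and the log2 change of the ratio was -0.04 ± 0.17.

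Loci sum the counts of miRNAs whose kept precursors lie no more than 10 kb apart on a strand. A miRNA with several precursors counts only at the precursor of its kept row. Its counts therefore cannot be assigned to that locus alone, which applies to the let-7 loci named below. Library sizes and TMM factors were computed anew on the sums, so that the CPM of a locus or seed family is on a scale of its own and need not equal the sum of its members' CPM. None of 290 passed with all libraries (0.0%) and none of 296 without replicate 3 (0.0%), with 22 (7.59%) and 42 (14.2%) at an unadjusted p under 0.05. Groups that do not overlap are named for some loci and seed families, but no share over all of them is given. For single miRNAs with all 6 libraries the shares were 16.4% higher and 14.4% lower. The locus with the smallest p without replicate 3 was the Spaca6 cluster of miR-99b, let-7e and miR-125a (chromosome 17, 17830188 to 17830879, plus strand). Its sum was 21070.5, 20568 and 21224 CPM in the controls and 25073, 25379 and 59379 CPM under shTRAX. The first pair of shTRAX libraries lay above the controls, which differed little among themselves, and replicate 3 more than 2-fold above that pair. The log2 fold change was 0.26 ± 0.03 without replicate 3 (adjusted p = 0.0646) and 0.81 ± 0.35 with it. All 6 tested arms lay above 0 both ways. An unadjusted p under 0.05 was found for 5 of the 6 without replicate 3, where 8.73% of all miRNAs were that much higher, and for 2 of the 6 with it, where 5.84% were. The 6 arms come from neighbouring hairpins of 1 cluster, so they are not separate observations. miR-99b-5p stood at 960.1, 1019 and 1040.0 CPM in the controls and 1181, 1176 and 3202 CPM under shTRAX.

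The mir-330 locus in Eml2 summed to 553, 475 and 505 CPM in the controls and 664, 691 and 611 CPM under shTRAX (0.36 ± 0.12 with and 0.40 ± 0.08 without replicate 3) and the mir-148b locus in Copz1 to 1374, 1391 and 1398 CPM in the controls and 1629.7, 1734 and 1683 CPM under shTRAX (0.28 ± 0.09 with and 0.27 ± 0.06 without replicate 3). In both, the 3 shTRAX libraries lay together above the controls. The mir-490 locus in Chrm2 (0.36 ± 0.15 with and 0.27 ± 0.09 without replicate 3) and the mir-185 locus in Tango2 (0.28 ± 0.12 with and 0.22 ± 0.08 without replicate 3) were also higher. The let-7a-2 and miR-100 locus on chromosome 9 (0.28 ± 0.14 with and 0.11 ± 0.03 without replicate 3) and the let-7f-2 and miR-98 locus in Huwe1 (0.21 ± 0.11 with and 0.10 ± 0.03 without replicate 3) came next without replicate 3.

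Lower loci were the mir-139 locus in Pde2a, at 2118, 2161 and 1982 CPM in the controls and 1734, 1609 and 1447 CPM under shTRAX (-0.39 ± 0.11 with and -0.32 ± 0.07 without replicate 3), and the mir-33 locus (-0.91 ± 0.43 with and -0.54 ± 0.11 without replicate 3), the mir-187 locus (-0.38 ± 0.13 with and -0.28 ± 0.06 without replicate 3) and the miR-449 locus in Cdc20b (-0.64 ± 0.28 with and -0.39 ± 0.09 without replicate 3). The mir-130b and mir-301b locus (-0.48 ± 0.18 with and -0.34 ± 0.10 without replicate 3), the mir-142a locus (-1.54 ± 0.47 with and -1.31 ± 0.50 without replicate 3) and the mir-21a locus in Vmp1 (-0.76 ± 0.30 with and -0.55 ± 0.26 without replicate 3) were also lower. The array in Sfmbt2 (chromosome 2, 10466663 to 10518279) summed to 1023, 1004 and 1045 CPM in the controls and 898, 874 and 724 CPM under shTRAX, with no overlap. Of its 49 tested miRNAs 44 lay below 0 with all libraries, 11 with an unadjusted p under 0.05, and 16 had such a p without replicate 3, all lower, against 4.61% and 8.43% of all miRNAs tested. Many of these miRNAs differ by few bases and can share reads, so they are not separate observations.

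The miR-379 to miR-410 stretch of the Dlk1-Dio3 region (chromosome 12, 109709060 to 109747960) showed no detectable difference as a whole (unadjusted p = 0.705 without replicate 3). Its sum was 33182, 32029.5 and 32128 CPM in the controls and 32793, 32772 and 30366 CPM under shTRAX, and the log2 fold change was 0.01 ± 0.03 without replicate 3 and -0.02 ± 0.08 with it. Its 64 tested miRNAs, however, ran from -0.80 for miR-376c-3p to 1.35 for miR-496a-3p without that library, 33 above 0, with 15 higher and 4 lower at an unadjusted p under 0.05, where 8.73% and 8.43% of all miRNAs were. The share that was lower is thus not above that of all miRNAs. miR-496a-3p and miR-412-5p, which rose without that library, and miR-376c-3p, which fell, thus lie in the same stretch. The neighbouring stretch around Meg3, with 22 tested miRNAs, stood at 0.04 ± 0.03 without replicate 3 and 0.13 ± 0.10 with it.

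Summed by seed, none of 451 families passed with all libraries (0.0%) and 2 of 460 without replicate 3 (0.435%), with 41 (9.09%) and 66 (14.3%) at an unadjusted p under 0.05. The 2 were the single-member families of miR-496a-3p and miR-412-5p. Among families of at least 2 tested members the miR-125 seed (miR-125a-5p, miR-125b-5p and miR-351-5p) summed to 79585, 83416 and 80849.9 CPM in the controls and 88842, 92659 and 156438 CPM under shTRAX, with a log2 fold change of 0.16 ± 0.03 without replicate 3 (unadjusted p = 0.00391) and 0.47 ± 0.23 with it. The let-7 seed, shared by 10 tested miRNAs, summed to 164694, 164462 and 165191 CPM in the controls and 174670.0, 176446 and 221615 CPM under shTRAX (0.09 ± 0.02 without replicate 3, unadjusted p = 0.00396, and 0.21 ± 0.11 with it). In both families the controls lay close together, the first pair of shTRAX libraries lay above them and replicate 3 was the highest. All 10 let-7 members lay above 0 without replicate 3, 6 with an unadjusted p under 0.05, where 8.73% of all miRNAs were higher. Some of these members, such as let-7a-5p and let-7e-5p, differ by few bases, so they are not separate observations.

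The seeds of miR-330-5p and miR-326-3p (0.33 ± 0.12 with and 0.33 ± 0.08 without replicate 3), of miR-30c-1-3p and miR-30c-2-3p (0.47 ± 0.21 with and 0.23 ± 0.07 without replicate 3), and of miR-34b-3p and miR-34c-3p (0.89 ± 0.46 with and 0.34 ± 0.33 without replicate 3) were also higher. On the lower side the miR-7 seed summed to 19483, 16109.6 and 21882 CPM in the controls and 14994, 15884 and 15826 CPM under shTRAX (-0.30 ± 0.13 with and -0.31 ± 0.13 without replicate 3), just without overlap. The seeds of miR-28a-5p and miR-708-5p (-0.21 ± 0.13 with and -0.19 ± 0.09 without replicate 3), miR-379-3p and miR-411-3p (-0.46 ± 0.28 with and -0.20 ± 0.10 without replicate 3), miR-146a-5p and miR-146b-5p (-0.60 ± 0.37 with and -0.71 ± 0.42 without replicate 3) and miR-10a-5p and miR-10b-5p (-0.59 ± 0.41 with and -1.01 ± 0.34 without replicate 3) followed. The groups overlapped for the last pair of these and for the miR-34 seed.

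The miRNAs by which shTRAX replicate 3 parted most from its group were ranked by its ratio to the other shTRAX libraries. Among miRNAs at a mean of 100 CPM or more, the largest log2 ratios of replicate 3 to the mean of replicates 1 and 2 were those of miR-370-3p (2.70), miR-342-3p (2.59), miR-328-3p (2.51), miR-485-3p (2.15), miR-99b-5p (1.44), miR-125a-5p (1.42), miR-3099-3p (1.41), miR-676-3p (1.24), miR-191-5p (1.22) and miR-92a-3p (1.08). Of these, only miR-125a-5p had also passed without replicate 3. miR-412-5p lay under that mean and could not be ranked here. miR-496a-3p was lower in replicate 3 than in replicates 1 and 2, but was not among the lowest ratios listed below. miR-370-3p stood at 45.2, 54.6 and 60.8 CPM in the controls and 64, 71.4 and 443 CPM under shTRAX. At the other end, miR-135a-5p stood at 1068, 953 and 932 CPM in the controls and 956, 984 and 230.4 CPM under shTRAX and miR-19b-3p at 506, 536 and 508 CPM in the controls and 481, 434 and 112 CPM under shTRAX. For both of these the controls and the first pair of shTRAX libraries lay together or nearly so, and replicate 3 far lower, at log2 ratios of -2.07 and -2.02. miR-219a-5p, miR-301a-3p, miR-136-5p, miR-153-3p, miR-376a-3p, miR-101a-3p, miR-20a-5p and miR-142a-3p followed, from -1.92 to -1.39.

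The direction of these ratios went with base composition. Across the 533 tested miRNAs with a sequence (81.9%), the ratio of replicate 3 to replicates 1 and 2 had a Spearman rho of 0.63 with GC content, as a description across miRNAs of the same libraries. Its median was -0.84 for the 98 miRNAs under 40% GC, -0.17 for 197 from 40% to 50%, 0.31 for 164 from 50% to 60% and 0.89 for the 74 at 60% or more. With mature length the rho was 0.04. The log2 fold change of shTRAX over control had a rho of 0.57 with GC content with all libraries and 0.27 without replicate 3, where the medians of the same 4 classes were -0.04, -0.03, 0.07 and 0.11. How far base composition sets the differences between the groups was not tested for single miRNAs beyond the fit with GC offsets, which gave 0 of 533 at an adjusted p under 0.05 and 46 at an unadjusted one. That fit moved the log2 fold change of 37 of the 75 named miRNAs with a sequence by over 1.5 times, of which 5 took the opposite sign. miR-99b-5p went to 0.24, miR-370-3p to 0.82 and miR-93-3p to 0.42, whereas let-7f-5p went to 0.75 and let-7a-5p to 0.66. miR-412-5p, at 1.23, miR-496a-3p, at 1.19, and miR-125a-5p, at 0.74, moved by less.

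**Figure D4:**
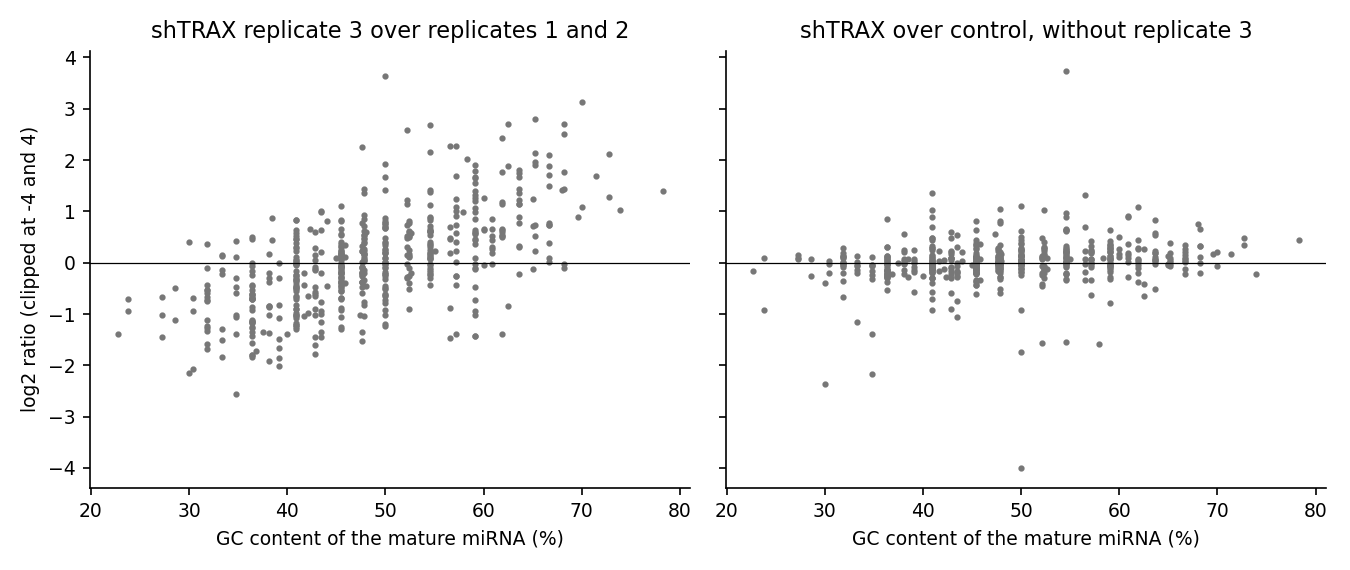
Log2 ratios against the GC content of the mature miRNA for the 533 tested miRNAs with a sequence, 1 point each. The left panel gives shTRAX replicate 3 over the mean of shTRAX replicates 1 and 2, where points climb from left to right; the right panel gives the log2 fold change of shTRAX over control without replicate 3, where the slope is slight. Ratios beyond 4 in size are drawn at 4.

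A list of 83 miRNAs in the authors' deposited table for R6/2 rests on all 6 libraries. shTRAX replicate 3 was the highest or the lowest of the 6 for 74 of the 83 (89.2%), against 81.0% of all 651 miRNAs tested. The log2 fold change was smaller in size without that library for 75 of the 83. Among all miRNAs tested the median size also fell in every abundance class, as from 0.24 to 0.10 at 1000 CPM or more. Without it 57 of the 83 had an unadjusted p under 0.05, where 8.73% of all miRNAs were higher and 8.43% lower. These counts only describe the list, since it was drawn up from the same samples.

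Lists of miRNAs marking other cell types show what else varied between the samples. In bulk tissue fewer cells of a type and less RNA per cell cannot be told apart. The microglia and inflammation list summed to 7569, 11925 and 17565 CPM in the controls and 6685, 8346 and 9341 CPM under shTRAX, with controls that spread more than 2-fold. Of its 12 tested members 10 lay below 0 with a median of -0.95, and 5 were lower at an unadjusted p under 0.05, against a median of -0.01 and 4.61% lower over all miRNAs tested. miR-142a-3p, of blood-derived and microglial cells, stood at 774, 1374 and 2393 CPM in the controls and 489.9, 677 and 222 CPM under shTRAX. miR-155-5p, induced in inflammation, stood at 55.5, 232 and 414 CPM in the controls and 36.8, 67.9 and 69.9 CPM under shTRAX, and control replicate 1 lay within the range of the shTRAX libraries. miR-147-3p had the smallest p of the list (-1.61 ± 0.50 with and -1.30 ± 0.46 without replicate 3). miR-342-3p stood at 354, 1428 and 1669 CPM in the controls and 363, 418 and 2352 CPM under shTRAX, and its log2 fold change was -1.56 ± 0.64 without replicate 3 and -0.14 ± 0.88 with it.

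The choroid plexus and ependyma list summed to 2142, 9087 and 2451 CPM in the controls and 5648, 6283 and 6566 CPM under shTRAX, so that control replicate 2 was higher and the other controls were lower than every shTRAX library. Without control replicate 2, miR-1298-5p (2.82), miR-448-3p (2.26) and miR-204-5p (1.77), all miRNAs of the choroid plexus, passed at an adjusted p of 0.0356 (edgeR), and so did the 3 loci and the seeds that hold them and the mir-1298 and mir-448 hairpins. The 3 miRNAs passed under no other setting tried. With it miR-204-5p stood at 864, 4816 and 1010.1 CPM in the controls and 2949, 3111 and 3534 CPM under shTRAX and its log2 fold change was 0.52 ± 0.66. Of the 19 tested members 13 lay above 0, with a median of 0.14. By p its first members were miR-449c-5p (-0.72 ± 0.24 with and -0.63 ± 0.21 without replicate 3), miR-34c-3p (1.42 ± 0.62 with and 0.45 ± 0.30 without replicate 3) and miR-449a-5p (-0.61 ± 0.27 with and -0.37 ± 0.09 without replicate 3), miRNAs of ciliated cells. The part of this variation in the other differences was not tested.

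**Figure D5:**
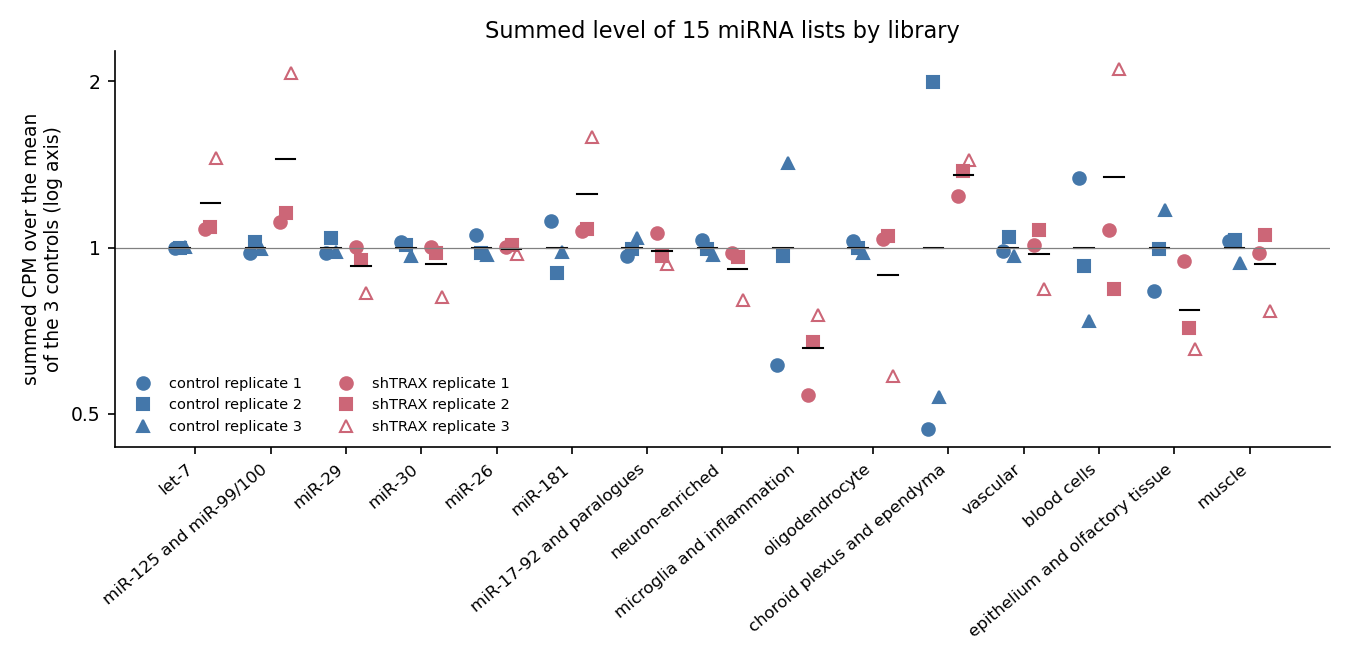
Summed CPM of 15 lists of miRNAs in each R6/2 library over the mean of the 3 controls, on a log axis, with symbols for replicates and black bars for group means. The let-7 and miR-125 lists separate the groups, the choroid plexus list splits control replicate 2 from the other controls, and shTRAX replicate 3 is the most extreme library in most lists.

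The let-7 list summed to 154711, 155086 and 155209 CPM in the controls and 167495, 168673 and 225182 CPM under shTRAX, and the miR-125 and miR-99/100 list to 77833, 81568 and 79128 CPM in the controls and 88512, 91959.6 and 164930.0 CPM under shTRAX. In both, shTRAX lay above control in 3 of 3 libraries. Without replicate 3 all 10 and all 11 of their members lay above 0, with medians of 0.12 and 0.16, and 6 of each had an unadjusted p under 0.05, against 8.73% of all miRNAs. With all libraries it was 9 of 10 and 9 of 11, with medians of 0.32 and 0.43 and 1 such member each, against 5.84%. Some members differ by few bases, such as let-7a-5p and let-7e-5p, or are both arms of a hairpin, such as miR-125a. They are therefore not separate observations. Members next by p were let-7d-5p (0.33 ± 0.16 with and 0.15 ± 0.04 without replicate 3), miR-125a-3p (0.81 ± 0.32 with and 0.36 ± 0.07 without replicate 3) and miR-125b-1-3p (0.51 ± 0.22 with and 0.29 ± 0.10 without replicate 3).

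The neuron-enriched list, the largest by level, summed to 300010.0, 288168 and 281836 CPM in the controls and 283951, 279471 and 233188 CPM under shTRAX. Of 27 tested members 17 lay below 0 with all libraries (median -0.10, none with an unadjusted p under 0.05) and 21 without replicate 3 (median -0.10, 1 higher and 3 lower). Over all miRNAs tested without replicate 3, 8.73% were higher and 8.43% lower at such a p. By p its first members were miR-138-2-3p (0.49 ± 0.25 with and 0.16 ± 0.07 without replicate 3), miR-7a-5p (-0.27 ± 0.14 with and -0.31 ± 0.13 without replicate 3) and miR-212-3p (-0.23 ± 0.13 with and -0.22 ± 0.07 without replicate 3), the last from the activity-induced locus that also yields miR-132. The oligodendrocyte list had 4 tested members, 1 above 0 with all libraries (median -0.13) and 3 without replicate 3 (median 0.08). miR-219a-2-3p, the first by p, stood at 1307, 1074 and 1170.1 CPM in the controls and 1248, 1344 and 1838 CPM under shTRAX (0.32 ± 0.18 with and 0.13 ± 0.10 without replicate 3), highest in replicate 3. miR-219a-5p stood at 540.0, 355 and 362 CPM in the controls and 354, 372 and 95.8 CPM under shTRAX and miR-338-3p at 8299, 8418 and 8115 CPM in the controls and 8646, 8677 and 3839 CPM under shTRAX, both lowest in shTRAX replicate 3.

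All 7 members of the miR-29 list lay below 0 with all libraries (median -0.28) and 6 without replicate 3 (median -0.07). The miR-30 list had medians of -0.10 and 0.01, miR-26 -0.05 and 0.02, miR-181 0.22 and 0.15, and miR-17-92 with its paralogues -0.03 and -0.06. In the miR-181 list miR-181c-3p stood at 0.35 ± 0.08 without replicate 3, 0.39 ± 0.13 with it and 0.05 with GC offsets. In the miR-30 list miR-30c-1-3p stood at 0.32 ± 0.08, 0.39 ± 0.15 and 0.15 in the same order. The vascular list had medians of -0.06 and 0.08 and the muscle list -0.13 and -0.01, with no member at an unadjusted p under 0.05. In the blood cell list (-0.39 and -0.20) miR-486a-5p was 180.5 CPM in replicate 3 against 34.5 to 45.4 CPM in the other libraries. miR-486a-5p and miR-486b-5p are copies that share reads. The epithelium and olfactory list, at 0.39 and 0.51, was led by miR-203-3p, which was lower, while miR-200c-3p stood at 0.62 ± 0.30.

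Whether shTRAX acted differently in R6/2 and in WT was tested as an interaction over all 12 libraries, and no miRNA passed (0.0% of 689), while 61 had an unadjusted p under 0.05 (8.85%) and DESeq2 gave 2 at an adjusted one, miR-467a-5p and miR-467b-5p, which rest on the same R6/2 counts. Without R6/2 shTRAX replicate 3 the test gave 0 and 69. miR-412-5p, with a difference of 0.45 ± 0.30 between the log2 fold changes in R6/2 and WT, and miR-496a-3p (-0.12 ± 0.31) had log2 fold changes in WT of 0.86 and 1.20. miR-376c-3p differed by -0.60 ± 0.42, with -0.14 in WT. miR-125a-5p differed by 1.03 ± 0.45 (unadjusted p = 0.0407, adjusted p = 0.469), with -0.12 in WT. The values of these 4 include shTRAX replicate 3 of R6/2.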

How the data were processed

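Small RNA was sequenced from striatum with a kit that tags molecules with identifiers. Extraction was by 1 of 2 methods, not assigned to samples in the labels. Per the submitters' processing notes, reads were demultiplexed with bcl2fastq 2.20 and trimmed with Trimmomatic, and the build was GRCm38. Which aligner and counter were used, and whether identifiers were collapsed, is not given in the sources used here. Raw counts were deposited by the authors, with a row per mature miRNA and precursor. They also deposited RPM values, which are counts over the column total. The authors' deposited fold is a signed score, and their p-value columns were not used for any result here. The number of unmapped per-sample columns was 0.

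From the counts, 1 precursor row was kept per mature name, the one with the highest mean (81 of 1915 names had several). Groups came from the labels. edgeR 4.0.16 (R 4.3.3) was run with TMM scaling, a count minimum of 10 in its expression filter, the quasi-likelihood test and Benjamini-Hochberg adjustment at 0.05, on the 6 R6/2 libraries, and again without shTRAX replicate 3. All adjusted and unadjusted p-values are from edgeR unless another tool is named. Arms were tested as an arm by shTRAX interaction with the library as a block. Loci joined precursors up to 10 kb apart, seeds were bases 2 to 8, and the R6/2 minus WT difference was an interaction over 12 libraries. Alternatives used DESeq2 1.42.0 and limma 3.58.1, the latter also on log2(RPM + 1), and the miRNA and arm fits were tested on simulated data. At a simulated log2 change of 1, 51 of 99 miRNAs and 13 of 30 hairpins were called at an adjusted p under 0.05 (edgeR). At a log2 change of 2 it was 98 of 99 and 30 of 30. All simulated libraries were drawn alike, with none set apart as shTRAX replicate 3 was. Tables were handled with Python 3.11.15 and pandas 2.3.3.

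The miRNAs named are the 10 higher and 10 lower by smallest p in each fit, the 15 most abundant, the 5 rarest-class miRNAs by p in each direction, the 6 hairpins, 5 loci and 5 seed families by p in each direction, up to 3 of each list, and the 10 with the largest ratios of shTRAX replicate 3 in each direction. The comparison and the lists were chosen with earlier results of these data known. Hosts are from GENCODE and sequences from RefSeq, which held 1623 of the 1915 names.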

Additional observations from a re-analysis of the deposited data

How the results depend on the processing

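The miRNA comparison gave 0 calls at an adjusted p under 0.05 under the other scalings, filters, the summed precursor rows and limma on RPM, but 13 with DESeq2, 6 with limma library weights and 1 with all 12 libraries in the fit. At an unadjusted p under 0.05 the 68 miRNAs became 38 at a mean of at least 10 CPM, 120 with library weights and 135 with 12 libraries. Leaving out 1 library at a time gave 0 to 4 adjusted and 28 to 114 unadjusted calls for miRNAs, 0 to 2 and 6 to 20 for hairpin arms, 0 to 3 and 12 to 42 for loci, 0 to 3 and 20 to 66 for seed families, and 0 and 30 to 146 for the R6/2 minus WT difference. Adjusted calls came without shTRAX replicate 3 (4 miRNAs, 2 seed families) and without control replicate 2 (3 miRNAs, 2 hairpins, 3 loci, 3 seed families). With both arms at 10 CPM or more 1 hairpin had an unadjusted p under 0.05. DESeq2 called 2 miRNAs for the R6/2 minus WT difference, which have the same R6/2 counts. The 38 higher and 30 lower miRNAs became 16 and 21 without control replicate 1, 24 and 13 without control replicate 2, 17 and 11 without control replicate 3, 73 and 32 without shTRAX replicate 1, 67 and 15 without shTRAX replicate 2, and 58 and 56 without shTRAX replicate 3. With GC offsets miR-330-3p turned from 0.36 to -0.0052, and the unadjusted count was 46 against 49 for the same miRNAs without offsets, an alternative chosen after seeing the data. The cause of these changes was not tested.

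The replicate numbers showed no clear pairing of the samples. Deviations of same-numbered libraries correlated at 0.194, -0.007 and 0.175. The first and last of these were the highest for their libraries, whereas control replicate 2 did not correlate best with its own number. With so few libraries in a group this check cannot settle whether the numbers pair the samples. With the replicate block there were 0 adjusted calls in every comparison and 48 miRNAs, 9 hairpins, 21 loci, 33 seed families and 46 R6/2 minus WT differences at an unadjusted p under 0.05. Of 1689 values of 92 named miRNAs under the alternatives, 32 were opposite in sign to the main value, over 11 miRNAs, and 22 passed the threshold. GC offsets moved 37 of 75 by over 1.5 times. Depth limits the rare miRNAs, whose median standard error was 0.37.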
